A study of Arabidopsis thaliana with 30 samples.

Results

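The chloroplast-encoded genes of Arabidopsis were followed across 30 libraries of poly(A) RNA. They were taken as every row of the abundance table whose identifier begins with ATCG, which gave 128 genes of 25300. The rRNA gene ATCG00950 is described apart, since it held at least 50% of the chloroplast reads in 23 of 30 libraries, and so is ATCG00920, the second highest, whose class the sources used here do not give. The remaining 126 are called the other chloroplast genes. Of the 128 genes, 115 reached 1 CPM (reads scaled to a common library total) in at least 3 libraries and were tested, and 13 did not.

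Libraries came from whole 4-d-old seedlings in continuous red light of 50 µmol, after 5 d of stratification at 4 °C. Seedlings spent 2 d at 21 °C and then 2 d at either 27 or 21 °C before collection at 96 h. The lines were pif457, a triple mutant of the growth-promoting transcription factors PIF4, PIF5 and PIF7; dcl1-24/hyl1-2, in which a dicer-like1 allele from a mutagenesis screen suppresses hyl1-2; hyl1-2, a null allele of the miRNA biogenesis gene HYL1; and MIM156, in which the 35S promoter drives a target mimic of miR156. All were in the Col-0 background and were set against Col-0. Each of the 10 groups of line and temperature had 3 libraries, which the study calls biological replicates. All groups were fitted together. Every p-value therefore rests on the spread among libraries within groups, pooled over the 10 groups, and not on the compared groups alone.

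The chloroplast genome, a remnant of a cyanobacterial one, encodes core subunits of both photosystems, the cytochrome complex between them, the ATP synthase, an NADH dehydrogenase-like complex, the large subunit of Rubisco, ribosomal proteins, rRNAs and tRNAs. A bacterial-type RNA polymerase, guided by nucleus-encoded sigma factors, and a phage-type polymerase transcribe it, mostly as long transcripts that carry several genes. Unlike nuclear mRNAs, plastid RNAs gain a poly(A) tail mainly as a mark for decay, so a poly(A) library captures them only in part. A value below is therefore the level of a gene among captured RNA, not its steady-state level in the plastid.

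The reference used here does not pair ATCG identifiers with gene names, except for 6 that annotation notes name as the best protein match of a nuclear gene. These are ATCG00670, a plastid-encoded subunit of the Clp protease, ATCG00530, a CemA-like envelope protein linked to proton extrusion, and ATCG00660, ATCG00750 and ATCG01310, the ribosomal proteins L20, S11 and L2. The last is ATCG00430, there named photosystem II reaction center protein G, an older name for a subunit of the NADH dehydrogenase-like complex. All other genes are given by identifier without a role. Further rRNA and tRNA genes must be among the 126 other chloroplast genes, which outnumber the 87 protein-coding genes of the reference. They could not be told apart without names, so the sums, counts and medians below mix these classes. The TAIR10.1 chloroplast annotation holds 87 protein-coding genes, 7 rRNA genes and 37 tRNA genes, and 7 protein-coding names and 8 tRNA names occur there more than once. Reads of such copies can be split or lost when only uniquely mapped reads are counted, so the levels of genes in the inverted repeat are uncertain.

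The libraries held 18.4 to 27.1 M reads, and a floor of 3 reads corresponded to 0.111 to 0.163 CPM. Chloroplast genes took 0.161 to 13.1% of reads, mitochondrial genes 0.0145 to 0.695%, and 4 nuclear rRNA genes 0.181 to 2.78%. At 21 °C the library numbered 2 had the highest sum of the other chloroplast genes in each of the 5 lines. The transcript of IPS1, the backbone of plant target mimics, stood at 32918 to 57279 CPM in MIM156 and at no more than 9.40 CPM in the other lines. PIF5 was at 3.74 to 11.8 CPM in pif457 against 44.9 to 110 CPM in Col-0, and PIF7 at 0.565 to 1.92 CPM in pif457 against 10.04 to 14.8 CPM in Col-0. PIF4 was at 51.8 to 56.0 CPM in pif457 against 79.1 to 112 CPM in Col-0 at 27 °C, and 12.6 to 14.7 CPM in pif457 against 20.5 to 40.4 CPM in Col-0 at 21 °C. HYL1 was below Col-0 in hyl1-2 at 21 °C, at 2.01 to 3.50 CPM in hyl1-2 against 4.51 to 5.81 CPM in Col-0, but above it at 27 °C, at 12.7 to 18.3 CPM in hyl1-2 against 6.17 to 8.73 CPM in Col-0. The values at 27 °C show no loss of HYL1 transcript, which does not settle whether the allele is null. HYL1 also overlaps a gene of 179 CPM on the same strand, so its reads may not be fully told apart from that gene's. The label could thus not be checked by this transcript. hyl1-2 and dcl1-24/hyl1-2 below therefore mean the libraries so labelled. Nuclear genes of photosynthesis, the marker of green tissue, held 7.42 to 17.1% of reads in every library. Seed markers summed to 0.612 to 185 CPM, highest in MIM156 at 27 °C, and root markers to 16.8 to 138 CPM, highest in hyl1-2 at 21 °C. Because seedlings were sequenced whole, fewer cells of a type and less RNA per cell cannot be told apart.

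ATCG00950, an rRNA, was the most abundant chloroplast transcript in all libraries but 1 and was lowest in pif457. At 27 °C it was at 1919, 814 and 1183 CPM in pif457, 1842, 2032 and 2149 CPM in dcl1-24/hyl1-2, 15696, 27483 and 11570 CPM in hyl1-2, 7491, 12959 and 9007 CPM in MIM156, and 14888, 13054 and 9884 CPM in Col-0. At 21 °C it was at 5813, 5169 and 2385 CPM in pif457, 6191, 9668 and 9458 CPM in dcl1-24/hyl1-2, 111717, 52162 and 39317 CPM in hyl1-2, 32142, 44946 and 18711 CPM in MIM156, and 35461, 26356 and 15947 CPM in Col-0. In every line the 3 libraries at 27 °C lay below the 3 at 21 °C, and pif457 and dcl1-24/hyl1-2 lay below Col-0 at both temperatures. In 1 library, replicate 3 of Col-0 at 27 °C, ATCG00920 reached 10959 CPM and exceeded ATCG00950, while the other Col-0 libraries at 27 °C had 2542 and 1982 CPM of ATCG00920.

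The other chloroplast genes were also lowest in pif457 and next lowest in dcl1-24/hyl1-2, with a wider gap between pif457 and Col-0 than for ATCG00950. Their summed level at 27 °C was 390, 396 and 359 CPM in pif457, 1192, 2558 and 1708 CPM in dcl1-24/hyl1-2, 4304, 6966 and 3576 CPM in hyl1-2, 3403, 3591 and 2694 CPM in MIM156, and 5590, 5367 and 3384 CPM in Col-0. At 21 °C the sum was 878, 1361 and 1093 CPM in pif457, 4440, 12279 and 4707 CPM in dcl1-24/hyl1-2, 10632, 18192 and 7487 CPM in hyl1-2, 6780, 21004 and 3626 CPM in MIM156, and 8505, 23669 and 7617 CPM in Col-0. Libraries at 27 °C lay below those at 21 °C within each line, and pif457 lay below Col-0 at both temperatures. At 21 °C the libraries of the remaining 3 lines overlapped those of Col-0. The sum is a description and has no test of its own.

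**Figure D1:**
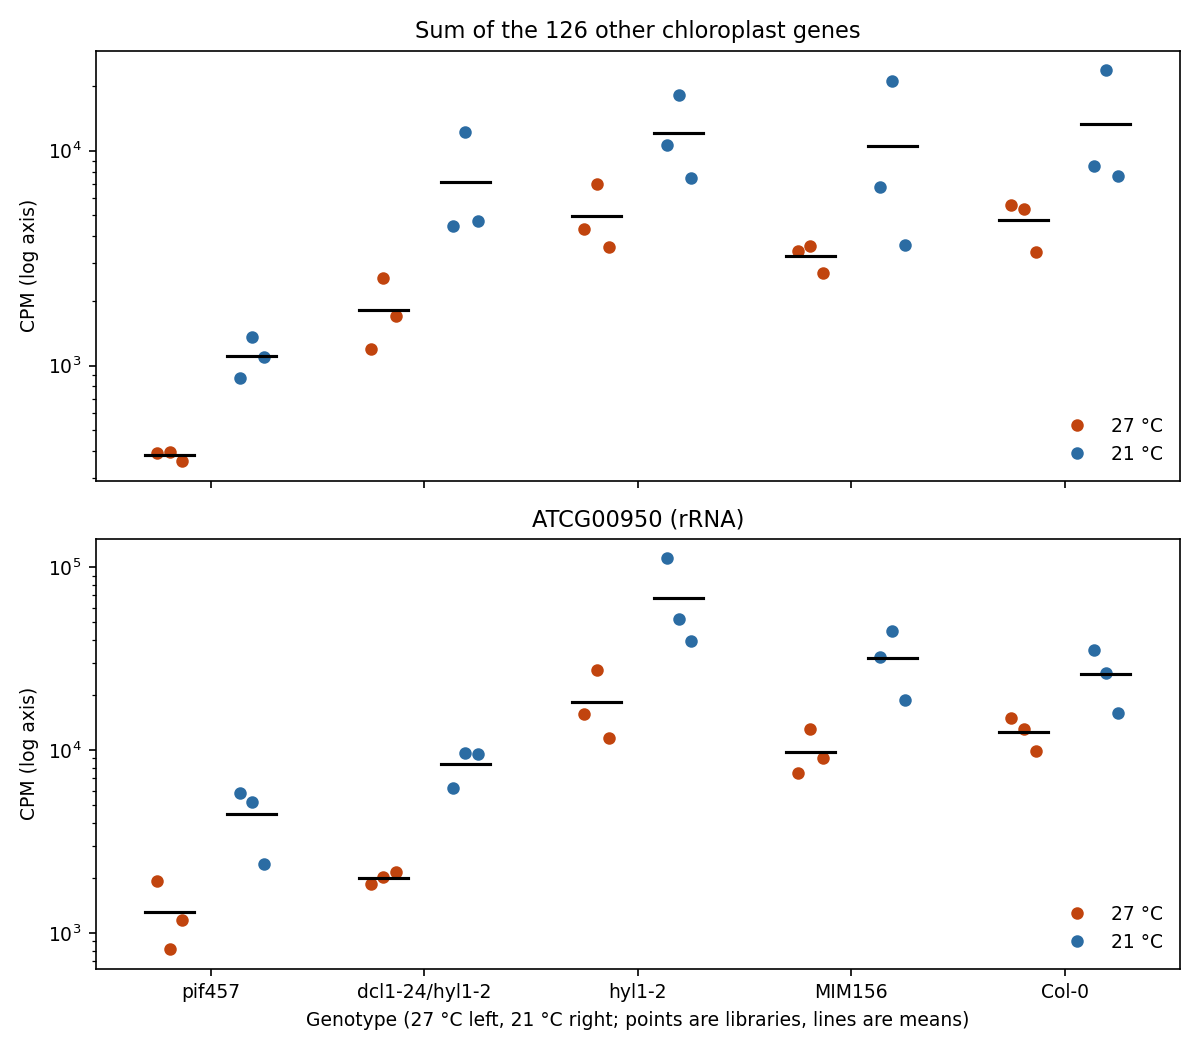
Level of chloroplast RNA in each library (CPM, log axis), with the sum of the 126 other chloroplast genes above and the rRNA ATCG00950 below; points are the 3 libraries of a group, lines their mean, and 27 °C stands left of 21 °C in each line. The pif457 libraries have the lowest sums, 359 to 396 CPM at 27 °C and 878 to 1361 CPM at 21 °C.

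The reads were spread unevenly over these genes. The 5 most abundant of the other chloroplast genes held 31.3% of their reads, the first 20 held 63.3% and the first 50 held 89.4%. ATCG00340 averaged 412 CPM over all libraries, ATCG00120 398 CPM, ATCG00350 378 CPM, ATCG00270 335 CPM and ATCG00280 331 CPM. These levels depend on transcript length, so ranks by abundance throughout are ranks by reads (CPM) and not by number of transcripts. The 13 genes that were not tested averaged 0.0377 to 0.465 CPM and had reads in 12 to 28 libraries.

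Changes are given below as log2 changes relative to the median tested gene of the comparison, ± standard error of the fit (n = 3 per group). A gene was called at an adjusted p (padj) under 0.05 by limma on log2(CPM + 0.5), with Benjamini-Hochberg adjustment over the 21780 genes tested, and rose or fell is written only of called genes. The test is of the change before the median was subtracted. That median was 0.27 for warmth in Col-0, 0.28 in hyl1-2, 0.32 in dcl1-24/hyl1-2, 0.36 in MIM156 and 0.01 in pif457. It was 0.13 and −0.13 for pif457 against Col-0 at 21 and 27 °C, and 0.17 and 0.22 for dcl1-24/hyl1-2 against hyl1-2. Counts of called chloroplast genes are over the 114 tested genes other than ATCG00950, and the comparisons against Col-0 at one temperature share its 3 libraries.

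Chloroplast transcripts were far lower in pif457 than in Col-0. At 21 °C, 103 of 114 genes fell and none rose, with a median relative change of −3.29, and at 27 °C 95 fell and none rose, with a median of −3.07. Over all tested genes, 2.49% were called lower and 6.5% higher at 21 °C, and 13% lower and 4.23% higher at 27 °C. After median-of-ratios scaling these shares were 6.12% lower and 4.27% higher at 21 °C and 8.52% lower and 7.76% higher at 27 °C, with 104 and 92 chloroplast genes called. The mean sum of the other chloroplast genes in pif457 was 0.0837 of that in Col-0 at 21 °C and 0.0798 at 27 °C.

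ATCG00120, second in abundance among the other chloroplast genes, was at 16.1, 33.2 and 26.2 CPM in pif457 at 21 °C against 468, 1585 and 469 CPM in Col-0. At 27 °C it was at 9.17, 10.02 and 9.67 CPM in pif457 and 399, 431 and 233 CPM in Col-0. The groups were an order of magnitude apart at each temperature, and the relative changes were −4.97 ± 0.68 (padj = 0.000159, limma) at 21 °C and −4.95 ± 0.68 (padj = 2.64e-05, limma) at 27 °C. ATCG00520 had the most negative relative change at both temperatures, −5.46 ± 0.67 (padj = 6.7e-05, limma) at 21 °C and −5.24 ± 0.67 (padj = 1.07e-05, limma) at 27 °C. It was at 1.46, 2.92 and 1.84 CPM in pif457 at 21 °C and 55.9, 253 and 70.2 CPM in Col-0. ATCG00340, the most abundant of the other genes, fell by 3.92 at 21 °C and by 3.75 at 27 °C.

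The 6 genes with a name fell at both temperatures, whatever their role. The Clp protease subunit ATCG00670 was at 3.72, 6.85 and 5.86 CPM in pif457 at 21 °C against 47.5, 185 and 69.7 CPM in Col-0, a relative change of −4.01 ± 0.64 (padj = 0.000748, limma). At 27 °C it was at 2.92, 4.29 and 3.40 CPM in pif457 against 48.0, 44.9 and 28.4 CPM in Col-0 (−3.19 ± 0.64, padj = 0.00106, limma). No pif457 library reached a Col-0 library. Among ribosomal proteins the L20 gene ATCG00660 changed by −3.77 at 21 °C and −4.03 at 27 °C, the S11 gene ATCG00750 by −2.63 and −3.20, and the L2 gene ATCG01310 by −2.28 and −1.68. The CemA-like gene ATCG00530 changed by −4.21 and −3.36 and ATCG00430 by −4.27 and −3.68. The call of ATCG00750 at 21 °C was lost without replicate 2 of Col-0 (−2.18) or replicate 1 of pif457 (−2.01). ATCG01310 lost its call without replicate 2 of Col-0 at the temperature concerned.

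**Figure D2:**
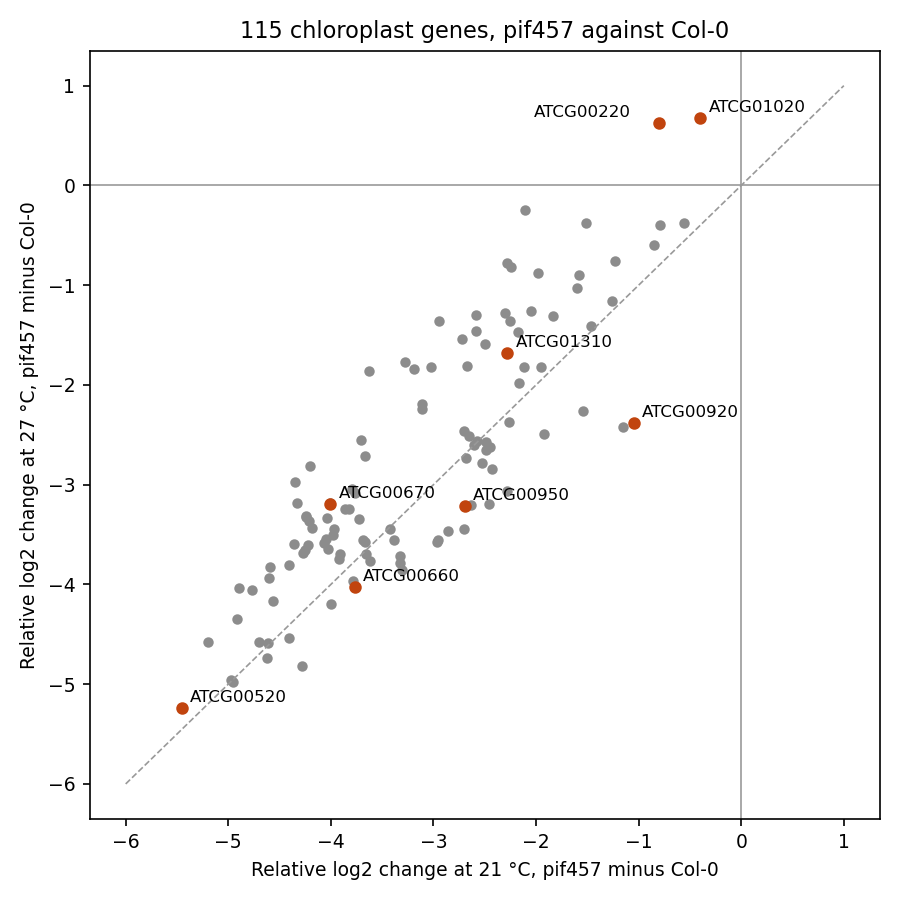
Relative log2 change of the 115 tested chloroplast genes in pif457 against Col-0, at 21 °C on the horizontal axis and 27 °C on the vertical axis, each with its own Col-0 libraries; the dashed line marks equal changes and coloured points are the labelled genes. Nearly all points lie below 0 on both axes, ATCG00520 farthest, while ATCG01020 and ATCG00220 lie above 0 at 27 °C.

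A few chloroplast genes were not called. ATCG01020 was at 16.3, 12.3 and 18.7 CPM in pif457 at 21 °C and 11.3, 37.6 and 15.7 CPM in Col-0, a relative change of −0.40 ± 0.63 (padj = 0.829, limma) whose sign depended on replicate 2 of Col-0. At 27 °C it was at 16.3, 19.9 and 10.3 CPM in pif457 and 14.9, 9.73 and 7.0 CPM in Col-0 (0.67 ± 0.63, padj = 0.616, limma). ATCG00220 was at 3.50, 3.07 and 4.25 CPM in pif457 at 27 °C and 2.92, 3.31 and 1.34 CPM in Col-0 (0.63 ± 0.50, padj = 0.551, limma), and at 21 °C at 1.04, 1.82 and 1.23 CPM in pif457 and 2.19, 3.62 and 1.73 CPM in Col-0 (−0.80 ± 0.50, padj = 0.423, limma). For both genes the lines overlapped at both temperatures. The share of ATCG01020 among reads of the other chloroplast genes was 4.02 ± 1.09% in pif457 at 27 °C and 0.218 ± 0.044% in Col-0 (SD, n = 3 each).

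The rRNA ATCG00950 changed by −2.70 ± 0.44 (padj = 0.00102, limma) in pif457 at 21 °C and by −3.21 ± 0.44 (padj = 2.43e-05, limma) at 27 °C. ATCG00920 was not called at 21 °C (−1.05 ± 0.65, padj = 0.399, limma) and fell at 27 °C (−2.38 ± 0.65, padj = 0.00949, limma). The call at 27 °C was lost without replicate 3 of Col-0, the library with 10959 CPM, and without replicate 2 of pif457.

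Other RNA that poly(A) selection is meant to hold back was lower in pif457 too. Mean reads on nuclear rRNA were 5622 CPM in pif457 and 18618 CPM in Col-0 at 21 °C, and 2797 CPM in pif457 and 10014 CPM in Col-0 at 27 °C. Mitochondrial genes averaged 316 CPM in pif457 and 2524 CPM in Col-0 at 21 °C, and 168 CPM in pif457 and 1980 CPM in Col-0 at 27 °C. Of 49 mitochondrial genes tested, 32 fell in pif457 at 21 °C and 31 at 27 °C. Photosynthesis genes of the nucleus, whose mRNAs are polyadenylated, averaged 142821 CPM in pif457 and 154352 CPM in Col-0 at 21 °C, and 163088 CPM in pif457 and 123658 CPM in Col-0 at 27 °C. With the nuclear rRNA level as a covariate, a fit added after seeing the data, 20 chloroplast genes were called lower at 21 °C, against 0.234% of all tested genes, and 46 at 27 °C, against 5.15%. ATCG00950 was not called at 21 °C in that fit. Since nuclear rRNA itself differed between the lines, the fit cannot tell the line apart from the nuclear rRNA level. Without the libraries numbered 2 at 21 °C the counts were 84 and 102.

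Warmth went with lower chloroplast transcripts in every line, and no chloroplast gene rose in any of the 5 comparisons of 27 °C against 21 °C. In Col-0, 18 of 114 fell, with a median relative change of −1.39, against 4.63% of all tested genes lower and 25.1% higher. In pif457, 9 fell (median −0.95), against 7.86% lower and 7.82% higher over all genes. In hyl1-2, 23 fell (median −1.20), against 8.74% lower and 31.8% higher. In dcl1-24/hyl1-2, 60 fell (median −1.99), against 3.29% lower and 27.3% higher. In MIM156, 21 fell (median −1.23), against 3.54% lower and 34.2% higher. After median-of-ratios scaling the shares over all genes were 9.68% lower and 8.54% higher in Col-0, 9.13% and 8.27% in pif457, 17.1% and 14.3% in hyl1-2, 7.9% and 6.49% in dcl1-24/hyl1-2, and 9.75% and 8.57% in MIM156, with 22, 9, 30, 67 and 24 chloroplast genes called. The share of chloroplast genes called lower was thus close to the background in pif457 and above it in the other lines under both scalings.

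The genes with the most negative called changes are given line by line. In Col-0, ATCG00400 was at 6.60, 6.09 and 4.13 CPM at 27 °C against 18.6, 60.1 and 21.0 CPM at 21 °C, a relative change of −2.56 ± 0.63 (padj = 0.00954, limma) that lost its call without replicate 2 at 21 °C. ATCG00040 was next, at 69.7, 47.8 and 35.0 CPM at 27 °C against 114, 417 and 141 CPM at 21 °C (−2.21 ± 0.63, padj = 0.0262, limma), and it lost its call without replicate 2 at 21 °C or replicate 2 or 3 at 27 °C. Within each gene the temperatures did not overlap, and the library numbered 2 at 21 °C was far above the other libraries.

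In pif457 and in hyl1-2 the most negative were a pair with neighbouring identifiers. ATCG00940 was at 4.43, 3.73 and 2.66 CPM at 27 °C against 50.5, 21.3 and 16.7 CPM at 21 °C in pif457 (−2.73 ± 0.48, padj = 0.000378, limma). In hyl1-2 it was at 31.0, 54.5 and 22.6 CPM at 27 °C against 368, 187 and 125 CPM at 21 °C (−2.87 ± 0.48, padj = 0.000322, limma). ATCG00930 changed by −2.52 ± 0.40 in pif457 and −2.73 ± 0.40 in hyl1-2. Here the library numbered 2 was not the highest at 21 °C: replicate 1 was. ATCG00930 correlated with ATCG00950 at 0.90 and with the sum of the other chloroplast genes at 0.82, and ATCG00940 at 0.93 and 0.85. ATCG00960, ATCG00970 and ATCG01180, which fell in both lines too, were likewise closer to ATCG00950. The remaining genes called in pif457, ATCG00280, ATCG00340, ATCG00350 and ATCG00860, were closer to the sum.

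In dcl1-24/hyl1-2 the most negative changes were those of ATCG00700 (−3.57 ± 0.67, padj = 0.00136, limma) and ATCG00340. ATCG00340 was at 19.9, 60.1 and 92.6 CPM at 27 °C against 287, 797 and 347 CPM at 21 °C (−3.47 ± 0.66, padj = 0.00158, limma). Of the named genes, the L2 gene ATCG01310 (−1.94), the CemA-like ATCG00530 (−2.27) and ATCG00430 (−2.09) fell in this line, while the Clp subunit ATCG00670 (−1.84), the L20 gene ATCG00660 (−1.70) and the S11 gene ATCG00750 (−1.44) were not called. The call of ATCG01310 was lost without replicate 2 at 21 °C or replicate 1 at 27 °C, and those of ATCG00530 and ATCG00430 without replicate 2 or 3 at 21 °C or replicate 1 or 3 at 27 °C. In MIM156, ATCG00490 was at 54.1, 97.1 and 68.0 CPM at 27 °C against 423, 911 and 225 CPM at 21 °C (−2.99 ± 0.56, padj = 0.00122, limma), and ATCG00340 changed by −2.94 ± 0.66.

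ATCG00950 fell with warmth in 4 lines, by 1.77 in pif457 (padj = 0.00862, limma), 2.12 in hyl1-2 (padj = 0.00285, limma), 2.37 in dcl1-24/hyl1-2 (padj = 0.00201, limma) and 2.01 in MIM156 (padj = 0.00665, limma). In Col-0 it was not called (−1.26 ± 0.44, padj = 0.0981, limma). The call in pif457 was lost without replicate 1 at 21 °C or replicate 2 at 27 °C. ATCG00920 fell in dcl1-24/hyl1-2 alone (−2.31 ± 0.65, padj = 0.0252, limma), a call lost without replicate 3 at 21 °C or replicate 2 at 27 °C, and its interaction with line was not called.

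These counts rested on few libraries. In Col-0 the count was 3 without replicate 2 at 21 °C or replicate 3 at 27 °C and 10 without replicate 1 or 2 at 27 °C. In pif457 it was 3 to 5 without any one library other than replicate 1 at 21 °C and 17 without that one. In hyl1-2 it was 5 to 7 without replicate 2 at 21 °C or replicate 1 or 3 at 27 °C. The count for dcl1-24/hyl1-2 was 21 without replicate 2 at 21 °C and 23 without replicate 1 at 27 °C. In MIM156 it was 41 without replicate 3 at 21 °C and 10 to 13 without replicate 2 at 21 °C or replicate 1 or 3 at 27 °C. With replicate number as a block, which the residuals of Col-0 allowed as a pairing, 44 fell in Col-0.

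Mean nuclear rRNA was lower at 27 °C as well, although the temperatures overlapped in Col-0 and pif457. Its ratio of 27 °C over 21 °C was 0.538 in Col-0, 0.497 in pif457, 0.441 in hyl1-2, 0.302 in dcl1-24/hyl1-2 and 0.43 in MIM156. The 4 nuclear rRNA genes differed, however. In Col-0 the fitted ratio was 0.597 for AT2G01010 and 0.535 for AT3G41768, but 0.849 for AT3G41979 and 1.02 for AT2G01020. In pif457 it was 0.544, 0.480, 0.883 and 1.03 in the same order, and none was called in either line. All of them were called lower in MIM156, but only AT2G01010 and AT3G41768 in hyl1-2 and dcl1-24/hyl1-2. With the nuclear rRNA level as a covariate, 3 chloroplast genes were called lower in Col-0, 3 in pif457, 4 in hyl1-2, 2 in dcl1-24/hyl1-2 and 3 in MIM156. The shares of all genes called lower in that fit were 4.03%, 7.03%, 8.1%, 1.41% and 2.98% in the same order of lines. None of the chloroplast counts stood clearly above that background. Nuclear rRNA itself varied with temperature and correlated with the sum of the other chloroplast genes at 0.82 over 30 libraries, but at 0.22 within groups. That fit therefore cannot tell warmth apart from the nuclear rRNA level. Every chloroplast gene called without the covariate kept its sign in it. Without the libraries numbered 2 at 21 °C, 10 fell in Col-0, 15 in pif457, 12 in hyl1-2, 52 in dcl1-24/hyl1-2 and 14 in MIM156, where 1 rose.

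**Figure D3:**
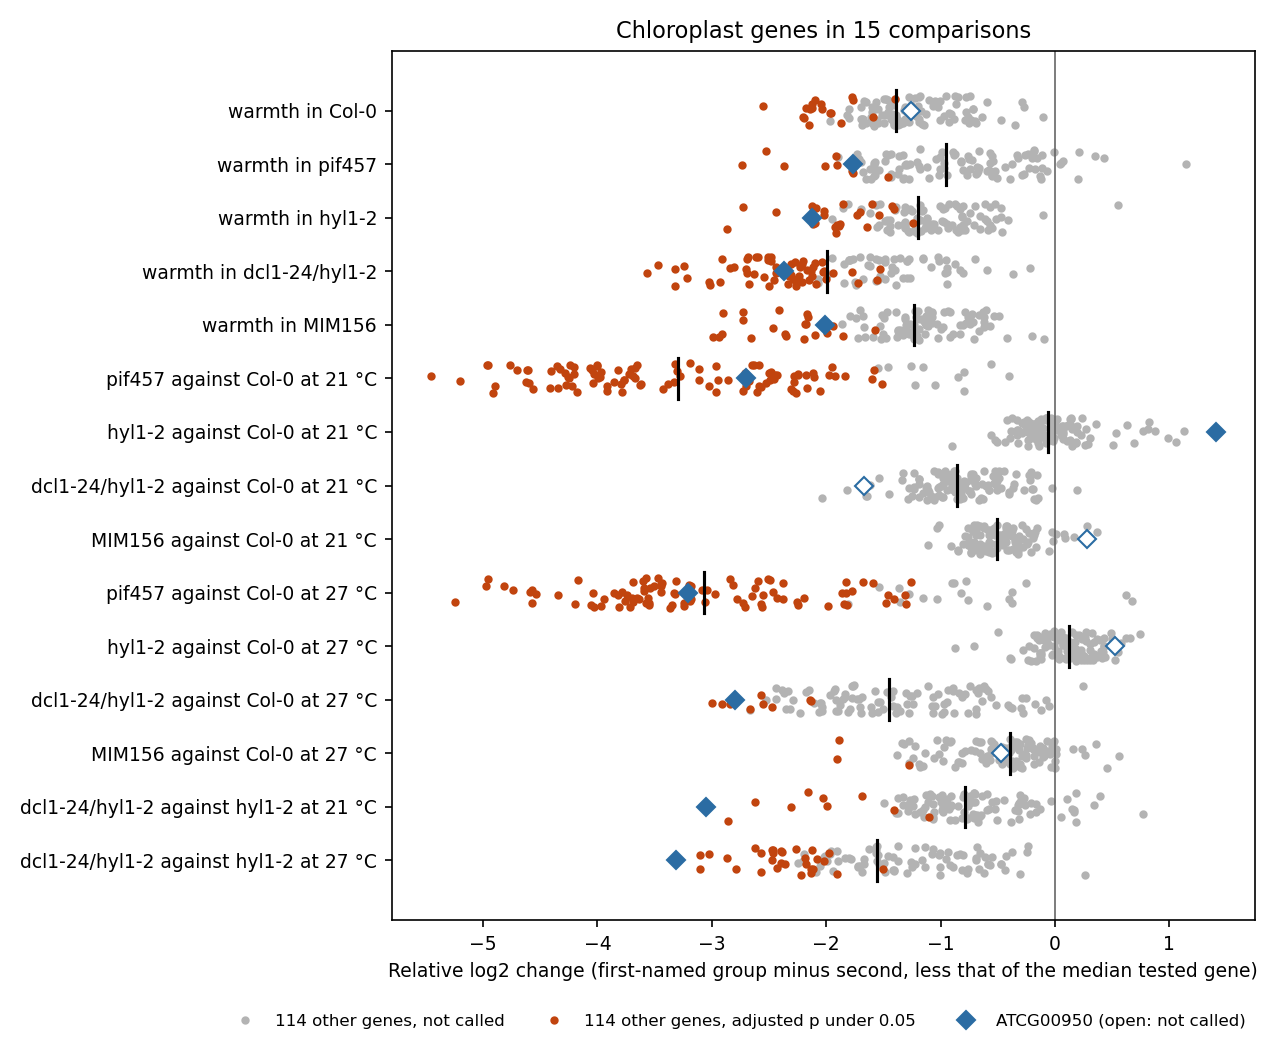
Relative log2 change (first-named group minus second, less that of the median tested gene) of the 115 tested chloroplast genes in 15 comparisons; round points are the 114 genes other than ATCG00950, coloured where called, black bars their median, and diamonds ATCG00950, open where not called. The medians are −3.29 and −3.07 for pif457 against Col-0, −0.95 to −1.99 for warmth, and −0.06 and 0.13 for hyl1-2 against Col-0.

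Chloroplast transcripts in dcl1-24/hyl1-2 were lower than in hyl1-2, the line it was derived from, above all at 27 °C. There, 30 of 114 genes fell and none rose, with a median relative change of −1.55, against 1.53% lower and 10.1% higher over all tested genes. At 21 °C, 9 fell and none rose (median −0.78), against 8.9% lower and 22.6% higher. After median-of-ratios scaling these shares were 3.38% lower and 2.81% higher at 27 °C and 15.8% lower and 13.9% higher at 21 °C, with 31 and 10 chloroplast genes called. The count at 21 °C was therefore at or below the background, whereas that at 27 °C was well above it. The numbered replicates of these groups deviated together, and with replicate number as a block 61 fell at 27 °C and 16 at 21 °C.

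ATCG00490 was at 17.3, 31.3 and 30.5 CPM in dcl1-24/hyl1-2 seedlings at 27 °C and 126, 313 and 177 CPM in hyl1-2 (−3.10 ± 0.56, padj = 0.0025, limma). ATCG01180 was at 12.8, 12.3 and 9.73 CPM in dcl1-24/hyl1-2 and 80.5, 171 and 50.2 CPM in hyl1-2 (−3.10 ± 0.56, padj = 0.0025, limma). Neither gene overlapped between the lines. At 21 °C, ATCG00960 was at 43.9, 62.0 and 34.4 CPM in dcl1-24/hyl1-2 and 502, 323 and 160 CPM in hyl1-2 (−2.86 ± 0.49, padj = 0.00044, limma), and ATCG01180 changed by −2.62 ± 0.56. Across all libraries ATCG00960 and ATCG01180 each correlated with ATCG00950 at 0.98. With the sum of the other chloroplast genes they correlated at 0.90 and 0.87. That sum overlapped between the 2 lines at 21 °C, with a ratio of means of 0.59. The CemA-like ATCG00530 changed by −2.26 ± 0.66 at 27 °C (padj = 0.0488, limma), a call lost on leaving out any of the 6 libraries.

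ATCG00950 had the largest fall of any tested chloroplast gene here, −3.31 ± 0.44 (padj = 0.000113, limma) at 27 °C and −3.05 ± 0.44 (padj = 9.44e-05, limma) at 21 °C. Nuclear rRNA averaged 2824 CPM in dcl1-24/hyl1-2 and 12080 CPM in hyl1-2 at 27 °C, and 9344 CPM in dcl1-24/hyl1-2 and 27412 CPM in hyl1-2 at 21 °C. Mitochondrial genes averaged 319 CPM in dcl1-24/hyl1-2 and 2386 CPM in hyl1-2 at 27 °C, and 864 CPM in dcl1-24/hyl1-2 and 6058 CPM in hyl1-2 at 21 °C. With nuclear rRNA as a covariate, no chloroplast gene other than ATCG00950 was called at 27 °C, against 0.23% of all genes lower, and 1 at 21 °C, against 7.22%, with ATCG00950 called at 21 °C and not at 27 °C. At 27 °C the count was 4 without replicate 2 of hyl1-2 or replicate 1 of dcl1-24/hyl1-2, 16 without replicate 3 of hyl1-2, 15 without replicate 3 of dcl1-24/hyl1-2, and 66 without the libraries numbered 2 at 21 °C, whose removal changes the shared estimate of spread.

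**Figure D4:**
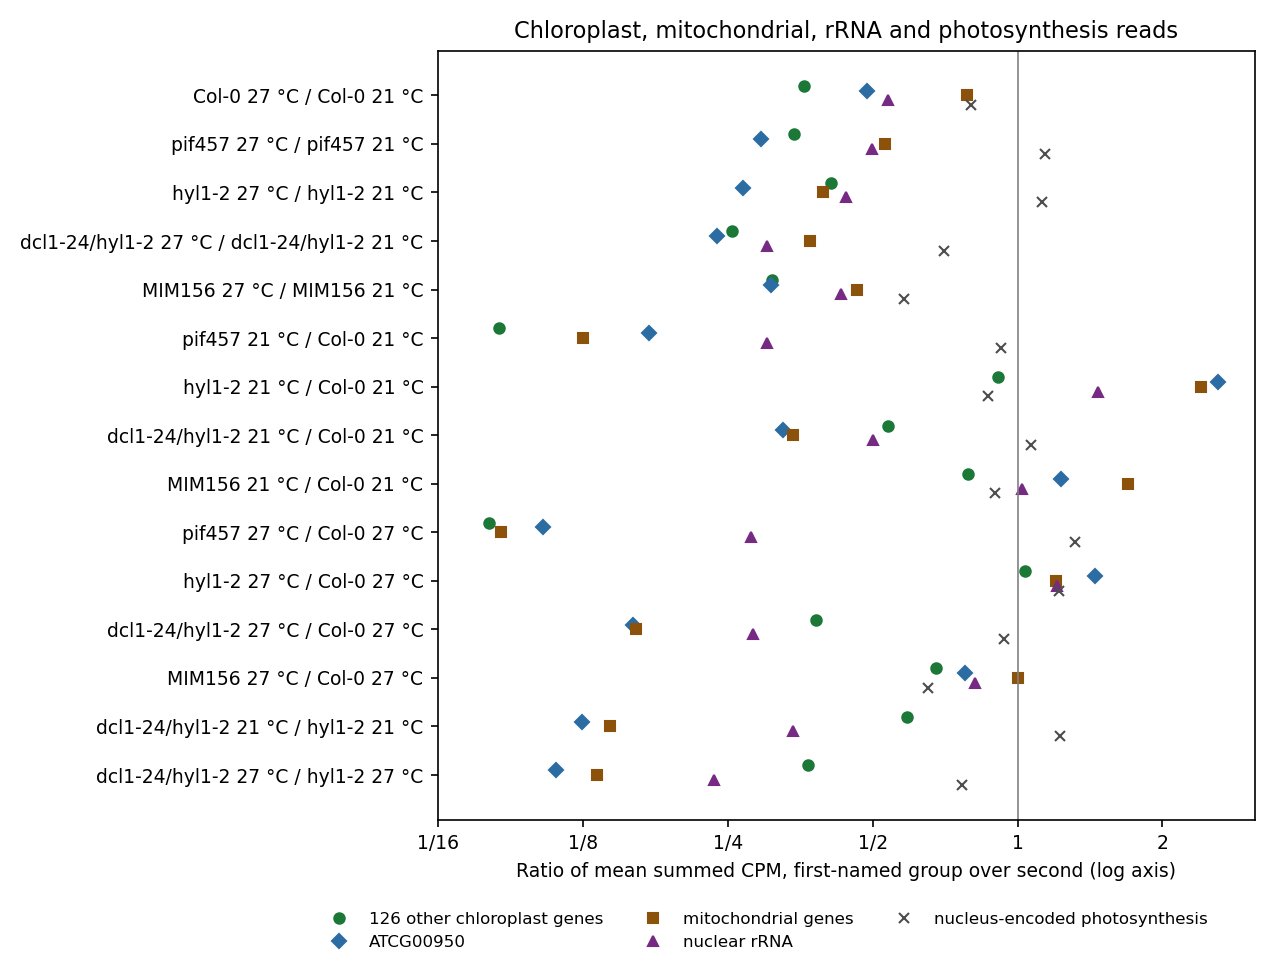
Ratio of mean summed CPM, first-named group over second (log axis), for the other 126 chloroplast genes, ATCG00950, mitochondrial genes, nuclear rRNA and nucleus-encoded photosynthesis genes in 15 comparisons. In dcl1-24/hyl1-2 against hyl1-2 at 21 °C the ratio is 0.125 for ATCG00950 and 0.59 for the other chloroplast genes, whereas in pif457 against Col-0 at 21 °C it is 0.172 and 0.0837.

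Set against Col-0, dcl1-24/hyl1-2 gave 9 of 114 genes lower and none higher at 27 °C, with a median relative change of −1.45, against 0.946% lower and 1.12% higher over all tested genes, or 1.44% and 0.579% after median-of-ratios scaling. ATCG01180 was at 12.8, 12.3 and 9.73 CPM in dcl1-24/hyl1-2 and 91.7, 120 and 57.0 CPM in Col-0 (−3.00 ± 0.56, padj = 0.00691, limma), and ATCG00490 changed by −2.84 ± 0.56 (padj = 0.0107, limma), a call lost without replicate 1 of either line. ATCG00950 fell by 2.79 (padj = 0.00164, limma). ATCG00920 fell by 2.91 (padj = 0.0263, limma), a call lost without replicate 3 of Col-0 or any dcl1-24/hyl1-2 library. The count was 2 to 5 without any one library other than replicate 2 of dcl1-24/hyl1-2, and 45 without the libraries numbered 2 at 21 °C. It was 41 with replicate number as a block, a pairing that the residuals over all genes allowed. Over chloroplast genes the same residuals correlated at −0.17, 0.34 and 0.14 in replicates 1, 2 and 3. With nuclear rRNA as a covariate the count was 0, where 0.119% of all genes were called lower. Nuclear rRNA averaged 2824 CPM in dcl1-24/hyl1-2 and 10014 CPM in Col-0.

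At 21 °C no chloroplast gene was called in dcl1-24/hyl1-2 against Col-0 by limma, ATCG00950 included (−1.67 ± 0.44, padj = 0.106, limma). The median relative change was −0.85, 11 of 114 genes had an unadjusted p under 0.05, edgeR called 2 and the fit with a replicate block 4, all lower. Over all genes, 0.349% were called lower and 0.496% higher, or 0.771% and 0.354% after median-of-ratios scaling.

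In hyl1-2 against Col-0, no chloroplast gene other than ATCG00950 was called by limma or edgeR at either temperature. The median relative change was −0.06 at 21 °C, where 1 gene had an unadjusted p under 0.05, against 11.4% lower and 8.03% higher over all genes, or 10.2% and 11.5% after median-of-ratios scaling. It was 0.13 at 27 °C, where none had, against 3.14% lower and 1.25% higher. Without replicate 1 of Col-0, and with a replicate block, 1 gene was called at 21 °C. ATCG00950 rose at 21 °C (1.40 ± 0.44, padj = 0.0416, limma), and the call was lost in 4 of 6 fits that left out 1 library, namely replicate 1 or 2 of hyl1-2 and replicate 2 or 3 of Col-0. Nuclear rRNA averaged 27412 CPM in hyl1-2 and 18618 CPM in Col-0 there. At 27 °C ATCG00950 was not called (0.53 ± 0.44, padj = 0.706, limma).

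In MIM156 against Col-0, 3 of 114 genes fell and none rose at 27 °C, with a median relative change of −0.39, against 10.4% lower and 16.3% higher over all genes, or 14.6% and 12.8% after median-of-ratios scaling. They were ATCG01210 (−1.90 ± 0.61, padj = 0.0328, limma), ATCG00920 (−1.89 ± 0.65, padj = 0.0443, limma) and ATCG00930 (−1.27 ± 0.40, padj = 0.0324, limma). All 3 correlated with ATCG00950 more closely than with the sum of the other chloroplast genes. The correlations were 0.77, 0.79 and 0.90 with ATCG00950 and 0.64, 0.59 and 0.82 with the sum, in that order. ATCG01210 was at 6.52, 11.2 and 4.08 CPM in MIM156 and 15.1, 16.6 and 60.3 CPM in Col-0, where replicate 3 was again the highest. The count of 3 of 114 lay below the share of all genes called lower under both scalings, and it was 0 without replicate 1 or 3 of MIM156. At 21 °C no gene was called by limma or edgeR and none had an unadjusted p under 0.05 (median −0.51), against 12.7% lower and 12.7% higher, but 13 were called without replicate 2 of MIM156 and 4 without the libraries numbered 2 at 21 °C. ATCG00950 was not called at 21 °C (0.28 ± 0.44, padj = 0.69, limma) or 27 °C (−0.47 ± 0.44, padj = 0.574, limma). Seed markers, of which 5 of 7 rose in MIM156 at 27 °C, averaged 101 CPM in MIM156 and 13.6 CPM in Col-0 there. By library they summed to 6.31, 185 and 113 CPM in MIM156 and 11.8, 18.5 and 10.5 CPM in Col-0. Replicate 1 of MIM156 thus lay below every Col-0 library. The part of seed markers in the chloroplast values was not tested.

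The response to warmth itself was not shown to differ between any line and Col-0 for any chloroplast gene. Of 114 genes, limma and edgeR called 0 in the interaction of each of the 4 lines with temperature, and at an unadjusted p under 0.05 there were 1 for pif457, 0 for hyl1-2, 1 for dcl1-24/hyl1-2 and 1 for MIM156. Over all tested genes, 2.78% were called in either direction for pif457, 4.32% for hyl1-2, 0% for dcl1-24/hyl1-2 and 1.63% for MIM156. The interaction of ATCG00950 was −0.52 ± 0.63 for pif457, −0.88 ± 0.63 for hyl1-2, −1.12 ± 0.63 for dcl1-24/hyl1-2 and −0.75 ± 0.63 for MIM156, with padj of 0.459 to 1 by limma. The different counts of genes that fell with warmth in the 5 lines are therefore no evidence of different responses.

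Within the chloroplast genes most moved together across libraries. On the log2 scale, the level of a gene and the sum of the remaining ones had a median Pearson correlation of 0.949 over 30 libraries (range 0.152 to 0.994), and 83 of 113 genes exceeded 0.9. The points share library depth, and these values are a description without a test. The lowest were ATCG00220 at 0.15 and ATCG01020 at 0.30. Besides ATCG00920, 10 genes followed ATCG00950 more closely than the sum, among them ATCG00930, ATCG00940, ATCG00960 and ATCG01180, which are among the genes named above for their falls. The sum of the other chloroplast genes correlated with ATCG00950 at 0.87 over 30 libraries but 0.44 within groups, with mitochondrial genes at 0.88 and 0.77, with nuclear rRNA at 0.82 and 0.22, and with nuclear photosynthesis genes at −0.04 and −0.18. ATCG00950 correlated with nuclear rRNA at 0.96 and 0.73.

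Genes with neighbouring identifiers changed more alike than distant ones, to a varying degree. Between consecutive identifiers the relative changes correlated at 0.50 for pif457 against Col-0 at 21 °C, 0.56 for warmth in hyl1-2, 0.55 for dcl1-24/hyl1-2 against hyl1-2 at 27 °C and 0.67 for the same lines at 21 °C, over 113 pairs. The lowest of the 15 comparisons were 0.15 for hyl1-2 against Col-0 at 27 °C, 0.24 and 0.31 for MIM156 against Col-0 at 21 and 27 °C, and 0.33 for warmth in Col-0. For genes 20 to 40 identifiers apart the mean correlation lay between −0.10 and 0.09 in every comparison. Identifiers run along the genome by the usual convention of their numbering, and neighbouring genes that share a long transcript are counted separately, so they are not independent measurements. Weakly expressed genes had smaller changes in pif457 at 27 °C, with median log2 changes before subtraction of −1.51 for the 38 genes of lowest level, −3.68 for the middle 38 and −3.64 for the 37 highest. The pseudocount of 0.5 CPM understates the changes of low genes.

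**Figure D5:**
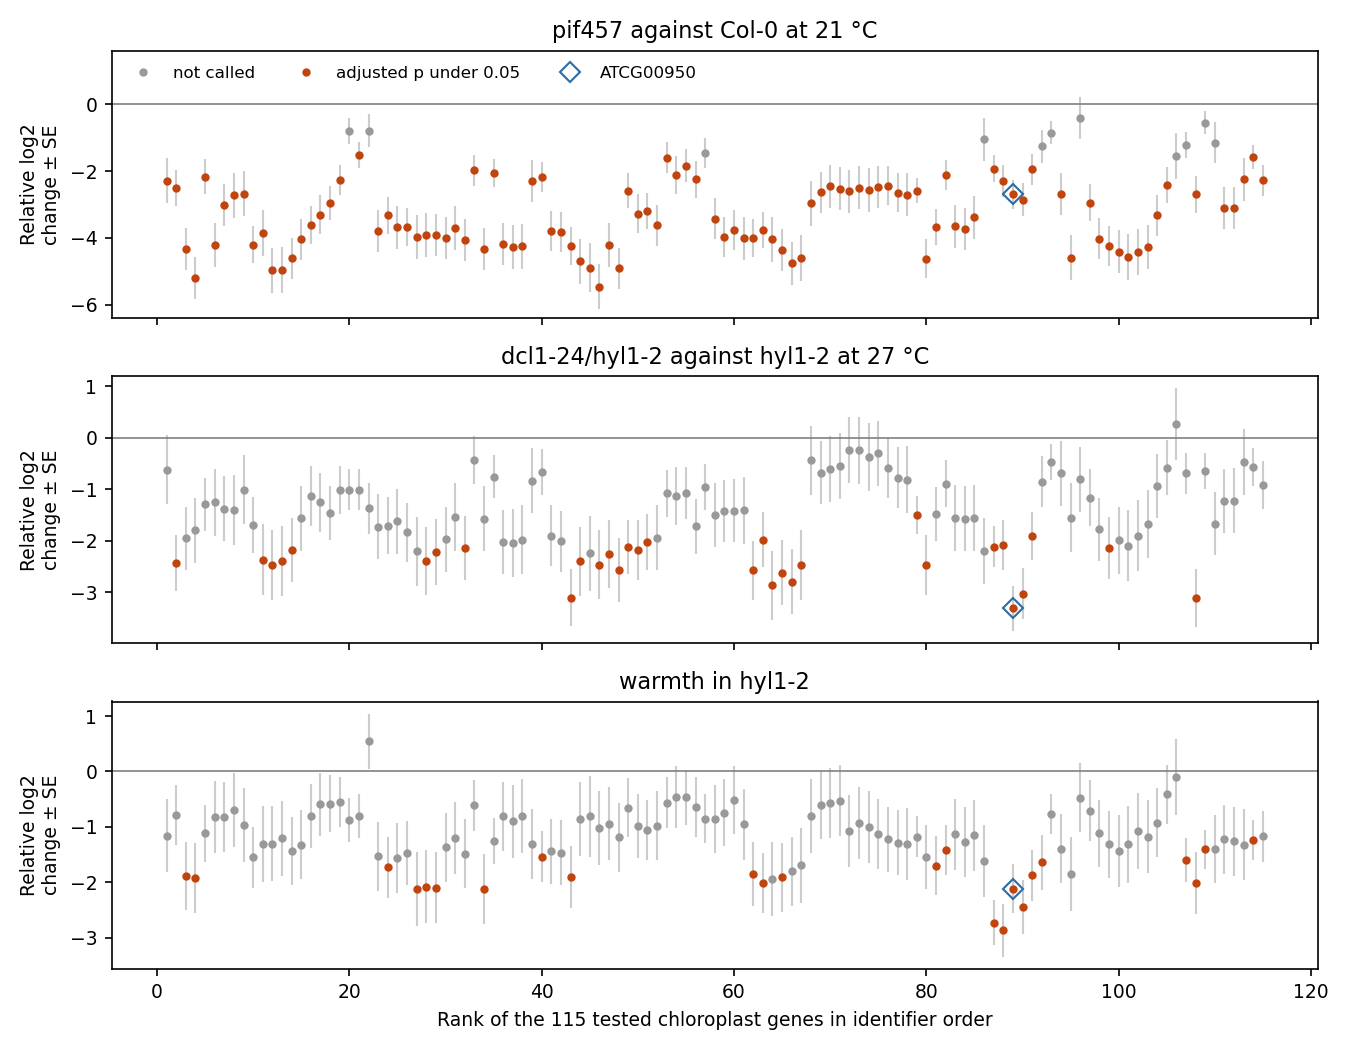
Relative log2 change ± standard error of the 115 tested chloroplast genes in identifier order, for pif457 against Col-0 at 21 °C, dcl1-24/hyl1-2 against hyl1-2 at 27 °C and warmth in hyl1-2; filled coloured points were called and the open diamond marks ATCG00950. Neighbours lie at like heights, with correlations between consecutive genes of 0.50, 0.55 and 0.56.

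The mixture of chloroplast reads also shifted. ATCG00120 held 2.22 ± 0.34% of the reads of the other chloroplast genes in pif457 at 21 °C and 6.12 ± 0.60% in Col-0, and its neighbour ATCG00130 held 1.24 ± 0.31% in pif457 and 3.39 ± 0.40% in Col-0 (SD, n = 3 each). ATCG00830 held 3.94 ± 1.04% in pif457 at 21 °C and 2.12 ± 0.19% in Col-0. At 27 °C ATCG00830 held 4.51 ± 0.24% in pif457 and 4.11 ± 0.48% in dcl1-24/hyl1-2, against 2.36 ± 0.21% in Col-0. ATCG00340 held 5.38 ± 0.58% in Col-0 at 27 °C and 8.26 ± 1.04% at 21 °C. These shares were selected after their values were seen and are given without a test.

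No tested nuclear gene of chloroplast transcription was called lower in pif457. Of 8 genes of sigma factors and phage-type polymerases, 4 rose at 27 °C and none fell: SIGE (1.54 ± 0.16), SIGA (0.67 ± 0.15), SIGF (0.58 ± 0.14) and SIG2 (0.55 ± 0.15), sigma factors that guide the bacterial-type polymerase to promoters. The background over all tested genes was 4.23% higher and 13% lower at 27 °C, and 6.5% higher and 2.49% lower at 21 °C, so that 1 called gene in a list is close to what the background gives. At 21 °C SIGE rose (0.63) and none fell. Of 16 polymerase-associated proteins, 0 were called at 27 °C by limma, with 1 at an unadjusted p under 0.05 and 1 by edgeR, and 1 rose at 21 °C. Of 15 genes of plastid RNA stability and decay, 3 rose at 27 °C and 1 at 21 °C, and of 24 nuclear photosynthesis genes 10 rose at 27 °C and 3 fell at 21 °C. The median relative changes of the 4 lists at 27 °C were 0.39, 0.18, 0.19 and 0.48. With nuclear rRNA as a covariate, 1, 0, 1 and 1 genes of these lists were called higher at 27 °C.

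With warmth in Col-0, most genes of plastid RNA stability and decay fell. Of 15, 11 fell and none rose, against 4.63% of all tested genes lower and 25.1% higher, among them CRB (−1.24 ± 0.11) and its RNA-binding partner CSP41A (−0.97 ± 0.13), which bind and protect plastid RNA, MRL1 (−1.07 ± 0.13), needed for the Rubisco large subunit mRNA, and RIF10 (−0.96 ± 0.14), the plastid polynucleotide phosphorylase that trims and degrades RNA. The sigma factors SIG2 (−0.96 ± 0.15) and SIGF (−0.92 ± 0.14) fell, 2 of 8. In the list of polymerase-associated proteins 1 of 16 was called higher, but 3 lower after median-of-ratios scaling. In pif457, 9 of the 15 RNA stability genes fell with warmth (7.86% of all genes), in dcl1-24/hyl1-2 6 (3.29%), in hyl1-2 4 (8.74%) with 4 called higher (31.8%), and in MIM156 3 (3.54%) with 2 called higher (34.2%). After scaling, the higher calls in hyl1-2 and MIM156 were gone and 10 and 6 fell.

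In hyl1-2 at 21 °C, where no chloroplast gene other than ATCG00950 was called, the nuclear transcription genes were lower. Of the polymerase-associated list 13 of 16 fell, among them FLN2 (−1.44 ± 0.33), PDE312 (−1.18 ± 0.29) and PTAC3 (−0.91 ± 0.16), and of the sigma factor and polymerase list 7 of 8 fell, or 3 after median-of-ratios scaling. Of the RNA stability list 12 of 15 fell. In dcl1-24/hyl1-2 against hyl1-2 at 21 °C the numbers that rose were 12, 6 and 11, or 10, 4 and 5 after scaling, whereas ATCG00950 and 9 other chloroplast genes fell. Over all tested genes 11.4% were lower in hyl1-2 and 22.6% higher in dcl1-24/hyl1-2, or 10.2% and 13.9% after scaling, and the shares of the lists lay above these.

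Outside both organelle genomes, the genes whose level ran closest to the sum of the other chloroplast genes lay close together on chromosome 2. They were AT2G07727 with a Pearson correlation of 0.96, AT2G07709 with 0.93, and AT2G07698, AT2G07711 and AT2G07733 with 0.91 to 0.92, over 30 libraries and among 21616 genes. AT2G07727 averaged 0.822 CPM in pif457 and 12.8 CPM in Col-0 at 27 °C. This stretch of chromosome 2 is known to hold a copy of mitochondrial DNA, so reads of these genes may come from mitochondrial RNA.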

How the data were processed

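Poly(A) RNA of 30 libraries was sequenced, 3 in each of 10 groups. The authors used STAR 2.7.7a for alignment to Araport11 and featureCounts 2.0.1 for uniquely mapped reads, which DESeq2 1.35.0 then compared. No source used here says whether strand was counted. The deposited sheet is named FPKM, but its values are CPM and were tested as such. Each library summed to 999904 to 999960, and 100% of values were whole reads at a tolerance of 0.001. Depth was 18.4 to 27.1 M reads, with floors that cover counting error only.

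Genes with at least 1 CPM in 3 libraries were fitted with limma 3.58.1 (trend, robust) on log2(CPM + 0.5) in R 4.3.3, with 10 group means in 1 fit, in 19 contrasts. The lists of gene roles that had been planned could not be used, because identifiers are not paired with names in the reference, so counts are over all tested chloroplast genes except ATCG00950. Named genes were those with a name in annotation notes, the highest by mean CPM, the largest called changes without overlap, both abundant RNAs, up to 4 called genes of each nuclear list, and the 5 nuclear genes most like the sum. ATCG01020, ATCG00220 and the genes named for their share of reads were chosen after their values were seen. Members and lists were chosen with earlier results of these data known.

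Alternatives were a pseudocount of 0.1, no filter, median-of-ratios scaling, totals over nuclear genes, edgeR 4.0.16 on the whole reads, replicate number as a block and leaving out each library. Chosen after seeing the data were the nuclear rRNA level as a covariate and leaving out the libraries numbered 2 at 21 °C. A pairing of same-numbered libraries was held to be allowed where all 3 correlations of their residuals over all genes exceeded 0.1. This held in 7 of 15 comparisons. The main counts come from the fit without pairing in every comparison, those 7 included, and the counts with a block are given beside them. The procedure was tested on simulated data, but the outcome of that test is not given here. Python 3.11.15 with pandas 2.3.3 and numpy 2.4.6 was used for tables.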

Additional observations from a re-analysis of the deposited data

Results flagged for a closer look

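By the interaction term of limma no chloroplast gene was called for a different response to warmth between a line and Col-0, whereas some nuclear genes of the lists were. For hyl1-2 these were 1 sigma factor gene, SIGA (0.96 ± 0.21, padj = 0.00802), 1 polymerase-associated gene, PTAC3 (0.78 ± 0.23), 1 RNA stability gene, AT5G08720 (0.71 ± 0.21), 9 photosynthesis genes and 1 root marker, CASP2 (−2.32 ± 0.62), all but the last more positive in hyl1-2. For MIM156 they were 2 RNA stability genes, RIF10 and MRL1 (both 0.77), and 10 photosynthesis genes, all of them more negative in MIM156 and led by CAB3 (−1.96 ± 0.33, padj = 0.00331). For pif457 they were 8 photosynthesis genes, all more positive in pif457. After median-of-ratios scaling the photosynthesis counts were 4 for hyl1-2, 4 for MIM156 and 6 for pif457. Groups of 3 libraries were too small for an outlier test.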

How the results depend on the processing

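The counts of called chloroplast genes in all 19 contrasts stayed within 1.5 times with a pseudocount of 0.1, no filter, median-of-ratios scaling and totals over nuclear genes, and the directions of the 15 direct comparisons held. With edgeR, 51 fell with warmth in Col-0, 22 in pif457 and 57 in MIM156, and against Col-0 it called 2 in dcl1-24/hyl1-2 (21 °C) and 5 in MIM156 (27 °C). With replicate number as a block, the counts were 44 for warmth in Col-0, 34 in pif457, 42 in hyl1-2 and 38 in MIM156. Against Col-0 the block gave 1 in hyl1-2 and 4 in dcl1-24/hyl1-2 at 21 °C, with 41 in dcl1-24/hyl1-2 and 12 in MIM156 at 27 °C, and against hyl1-2 it gave 16 and 61 at 21 and 27 °C. The block changed no other count by over 1.5 times. In 8 of 15 comparisons the libraries share only a number, as far as the residuals show. With nuclear rRNA as a covariate the warmth counts were 3 in Col-0, 3 in pif457, 4 in hyl1-2, 2 in dcl1-24/hyl1-2 and 3 in MIM156. The covariate gave 20 and 46 for pif457 against Col-0 at 21 and 27 °C, 0 for dcl1-24/hyl1-2 against Col-0 at 27 °C, and 1 and 0 for dcl1-24/hyl1-2 against hyl1-2 at 21 and 27 °C. Without the libraries numbered 2 at 21 °C, 10 fell with warmth in Col-0, 15 in pif457 and 12 in hyl1-2, and the counts against Col-0 were 4 in MIM156 at 21 °C and 45 in dcl1-24/hyl1-2 and 6 in MIM156 at 27 °C, with 66 in dcl1-24/hyl1-2 against hyl1-2 at 27 °C.

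Leaving out 1 library gave 3 to 21 for warmth in Col-0, 3 to 17 in pif457, 5 to 24 in hyl1-2, 21 to 62 in dcl1-24/hyl1-2 and 10 to 41 in MIM156. Against Col-0 at 21 °C it gave 71 to 104 in pif457, 0 to 1 in hyl1-2, 0 in dcl1-24/hyl1-2 and 0 to 13 in MIM156, and at 27 °C 81 to 96 in pif457, 0 in hyl1-2, 2 to 7 in dcl1-24/hyl1-2 and 0 to 2 in MIM156. For dcl1-24/hyl1-2 against hyl1-2 it gave 7 to 11 at 21 °C and 4 to 29 at 27 °C, and for the 4 interactions 0.

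For pif457 against Col-0 at 21 °C, ATCG00920 changed sign with the covariate (0.93). ATCG01020 changed sign with the covariate (0.011), without the libraries numbered 2 at 21 °C (0.26) and without replicate 2 of Col-0. On leaving out 1 library ATCG01020 ran from −0.72 to 0.12 there, and ATCG00950 in MIM156 at 21 °C from −0.098, without replicate 3 of Col-0, to 0.58. The balance of calls in small nuclear lists for warmth also turned. For sigma factors and polymerases in MIM156 it was 2 lower with median-of-ratios scaling and with edgeR, and net 1 lower without replicate 3 at 21 °C. For the polymerase-associated list it was 3 and 2 lower by these tools in Col-0, 1 and 2 in dcl1-24/hyl1-2, and 1 lower with scaling in MIM156. For sigma factors in pif457 it was 1 with the covariate, without replicate 1 at 21 °C and without replicate 3 at 27 °C. The cause of these changes was not tested.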
